A study of Homo sapiens with 8 samples.

Results

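Expression of 10 genes of the endoplasmic reticulum (ER) unfolded protein response was examined in lung adenocarcinoma cells treated with the electrophile DEM. The genes, named by a list of ER chaperones and targets of XBP1 and ATF6, were *HSPA5*, *HSP90B1*, *DNAJB9*, *SDF2L1*, *XBP1*, *HERPUD1*, *PDIA4*, *PDIA6*, *CALR* and *HYOU1*. This list and the others used below were chosen with earlier results of these data known. These genes are 10 of the 57815 gene identifiers for which the authors deposited a value, and each symbol was matched to 1 identifier. The question put to the list was whether these genes moved with DEM or whether only the targets of ATF4 did.

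RNA-seq was performed on polyadenylated RNA of ABC1 and HCC4006 cells, established human lines described by the labels as free of *KEAP1* and *NRF2* mutations. Cells of each line received 100 µM DEM or the vehicle DMSO for 16 h, with 2 libraries in each of the 4 groups and 8 libraries in all. DEM is diethyl maleate in the study's text and dimethylmaleate in the series title, and it inactivates KEAP1, the adaptor that directs the transcription factor NRF2 to degradation. Both lines stand for 1 cell population each, at 1 dose and 1 time. Expression was given as FPKM (sequenced fragments per transcript length and library size), a unit per length that allows levels to be set side by side between genes. The FPKM values hold no counts. In the authors' mean of scaled counts over a line's libraries, the listed genes lay between 336 (*DNAJB9*) and 27244 (*CALR*) in ABC1 and between 146 (*SDF2L1*) and 14971 (*CALR*) in HCC4006, so *DNAJB9* and *SDF2L1* rest on the fewest reads.

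The ER folds membrane and secreted proteins, and a load of unfolded proteins there is sensed by IRE1 (*ERN1*), PERK (*EIF2AK3*) and ATF6. IRE1 removes a short intron from *XBP1* mRNA, ATF6 is cut free in the Golgi, and the transcription factors so made raise genes for chaperones, disulfide isomerases and ER-associated degradation. PERK phosphorylates the translation factor eIF2α, which favours synthesis of ATF4. Other kinases that sense amino acid shortage, heme deficit or double-stranded RNA converge on the same phosphorylation, so ATF4 targets can be induced without the chaperone genes. Secretory epithelium is rich in ER, and ER chaperones are among its abundant transcripts.

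ATF6 and XBP1 act on the ER stress response element (ERSE), written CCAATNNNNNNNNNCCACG, and on its second form (ERSE-II), which is ATTGG and CCACG with 1 base between them. Both were searched on both strands of the RefSeq promoter windows of GRCh38.p14, from 250 bases before to 50 bases after each start, with 13 windows for the 10 genes. ERSE was found in 27 of all 35116 windows (0.0769%) and ERSE-II in 19 (0.0541%). Of the 10 genes, 5 held ERSE in a window and 3 held ERSE-II, which left *DNAJB9* and *PDIA4* with neither. The element TGACGTGG, bound by XBP1 and found in 0.729% of windows, was in that of *HYOU1* only, where it overlapped ERSE-II. The C/EBP-ATF element TGATGNAA, bound by ATF4 dimers and found in 3.62% of windows, was in that of *HERPUD1* only. The upstream stretches that hold the elements are shown because 8 of the 10 genes carry one, with elements in capitals, each read 5′ to 3′ on the strand of its gene in GRCh38.p14. In *HERPUD1* the first run in capitals is the C/EBP-ATF element on the opposite strand and the second is ERSE-II. In *HYOU1* the first run joins the XBP1 element and ERSE-II.
HSPA5, chr9:125241376-125241424, minus strand: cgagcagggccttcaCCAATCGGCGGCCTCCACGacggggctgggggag
HSP90B1, chr12:103930201-103930354, plus strand: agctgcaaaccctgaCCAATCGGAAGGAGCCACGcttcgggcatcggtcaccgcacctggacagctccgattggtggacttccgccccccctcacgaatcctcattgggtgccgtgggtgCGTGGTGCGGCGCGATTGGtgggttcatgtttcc
XBP1, chr22:28800588-28800636, minus strand: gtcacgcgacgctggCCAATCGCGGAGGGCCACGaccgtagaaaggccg
PDIA6, chr2:10812838-10812886, minus strand: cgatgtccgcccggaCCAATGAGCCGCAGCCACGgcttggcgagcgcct
CALR, chr19:12938369-12938417, plus strand: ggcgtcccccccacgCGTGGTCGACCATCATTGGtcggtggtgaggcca
SDF2L1, chr22:21642099-21642139, plus strand: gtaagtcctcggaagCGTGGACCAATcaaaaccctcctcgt
HERPUD1, chr16:56931892-56932141, plus strand: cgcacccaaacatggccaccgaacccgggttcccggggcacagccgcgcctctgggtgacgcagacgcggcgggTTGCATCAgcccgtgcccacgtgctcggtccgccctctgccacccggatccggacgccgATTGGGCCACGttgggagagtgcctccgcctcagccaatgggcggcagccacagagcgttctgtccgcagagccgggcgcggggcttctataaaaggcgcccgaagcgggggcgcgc
HYOU1, chr11:119057259-119057405, minus strand: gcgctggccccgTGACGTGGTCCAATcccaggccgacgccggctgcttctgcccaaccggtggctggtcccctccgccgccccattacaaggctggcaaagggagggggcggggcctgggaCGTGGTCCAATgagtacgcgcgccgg

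The element nearest to its start was that of *XBP1*, whose first base lay 52 bases before the start, followed by that of *HSPA5* at 66 bases and the second ERSE-II of *HYOU1* at 79 bases. *HSP90B1* held ERSE at 194 bases and, on the opposite strand, at 89 bases. The ERSE of *PDIA6* began 86 bases before the second of its annotated starts, and the ERSE of *CALR* and the ERSE-II of *SDF2L1* lay farther out, at 225 and 188 bases on the opposite strand. Of 21 genes of the ATF4 arm with a window, 0 held ERSE or ERSE-II and 5 held the C/EBP-ATF element (*AARS1*, *ASNS*, *ATF3*, *CHAC1* and *SLC3A2*). A match is a description of letters, and no binding was measured.

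**Figure D1:**
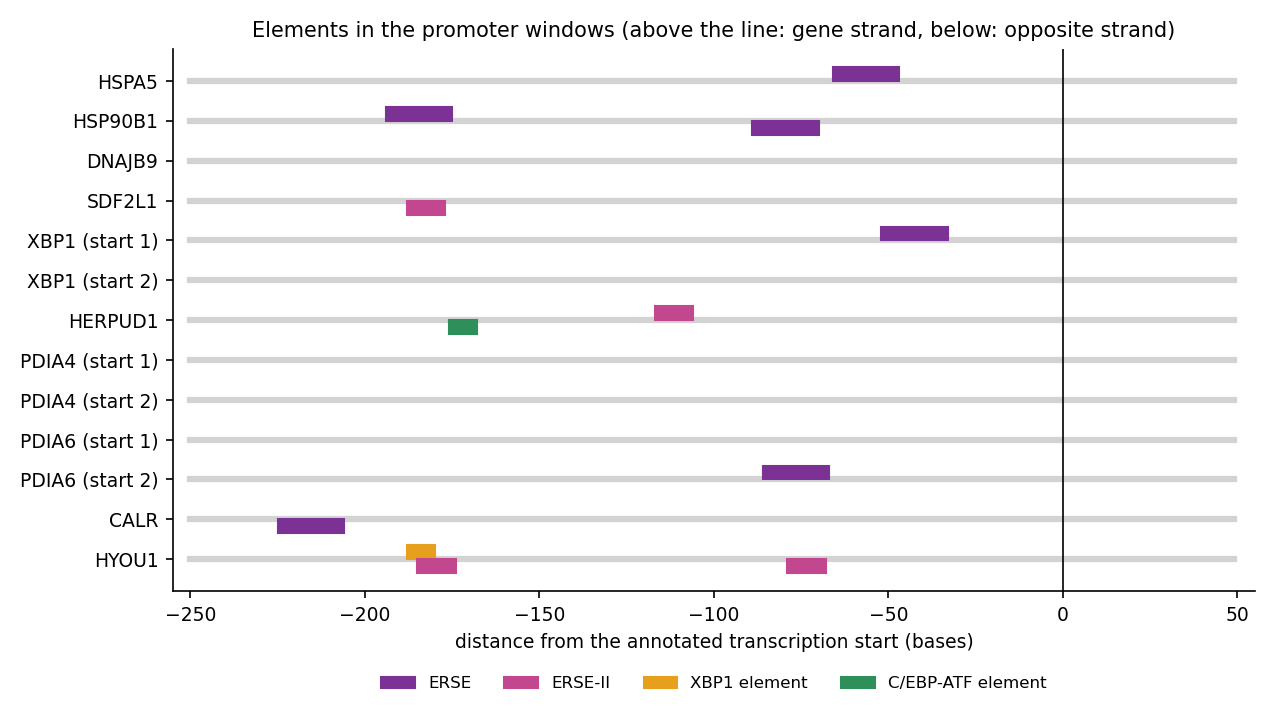
Elements found in the promoter windows of the 10 genes, 1 row per annotated start, with the distance in bases from the start on the horizontal axis; marks above a row are matches on the strand of the gene and marks below it matches on the opposite strand. All ERSE and ERSE-II matches lie upstream, from 225 bases (*CALR*) to 52 bases (*XBP1*) before the start, and the rows of *DNAJB9* and *PDIA4* are empty.

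The treatment was checked with 5 NRF2 targets. *NQO1*, *GCLM*, *HMOX1*, *SRXN1* and *TXNRD1* were all called upregulated in both lines by limma with Benjamini-Hochberg adjustment, a gene being called at an adjusted p under 0.05. *HMOX1*, which encodes heme oxygenase, went from 17.3 and 20.1 to 182 and 174 FPKM in ABC1 and from 5.59 and 5.89 to 57.4 and 55.4 FPKM in HCC4006. Epithelial markers were present in both lines, with *EPCAM* at 388 to 401 FPKM in ABC1 and 234 to 272 FPKM in HCC4006, whereas *NKX2-1* and *NAPSA*, which mark lung adenocarcinoma, stayed below 1 FPKM in every ABC1 library and reached 42.4 to 47.1 and 12.9 to 16.0 FPKM in HCC4006. *SFTPB* was at or near 0 in both. Defining markers of leukocytes (*PTPRC*, *CD3E*), fibroblasts (*DCN*, *PDGFRB*) and endothelium (*CDH5*, *VWF*) were below 1 FPKM in all 8 libraries, while *CD68* had 89.3 to 102 FPKM in HCC4006 and *COL1A1* 3.58 to 7.64 FPKM over both lines. The largest sum of FPKM in a library was 1.18 times the smallest, which does not measure depth.

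With vehicle, all 10 genes were expressed, and the order of their levels was similar in both lines. *CALR*, a calcium-binding chaperone of glycoproteins, was highest with 1020 and 1220 FPKM in ABC1 and 664 and 646 FPKM in HCC4006, rank 62 and 107 among the genes tested. *HSP90B1*, the ER member of the HSP90 family, came second at 658 and 786 FPKM in ABC1 and 246 and 227 FPKM in HCC4006. *DNAJB9* was lowest in ABC1 at 28.5 and 31.8 FPKM, and *SDF2L1* was lowest in HCC4006 at 13.6 and 12.6 FPKM. Between neighbours in the order of each line, the libraries overlapped only for *PDIA4* and *HERPUD1* in ABC1 and for *XBP1* and *HYOU1* in HCC4006. Both ABC1 libraries were above both HCC4006 libraries for all 10 genes, against 41.1% of the genes tested in both lines. In bulk libraries, fewer expressing cells and less RNA per cell cannot be told apart. The ratio of the means ran from 1.2 (*HSPA5*) to 4.0 (*SDF2L1*), with *HSP90B1* and *HYOU1* at 3.05 and 3.02. Together the 10 genes held 0.444% to 0.472% of the FPKM sum of an ABC1 library and 0.227% to 0.235% of an HCC4006 library, and these ranges covered DEM and vehicle alike.

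**Figure D2:**
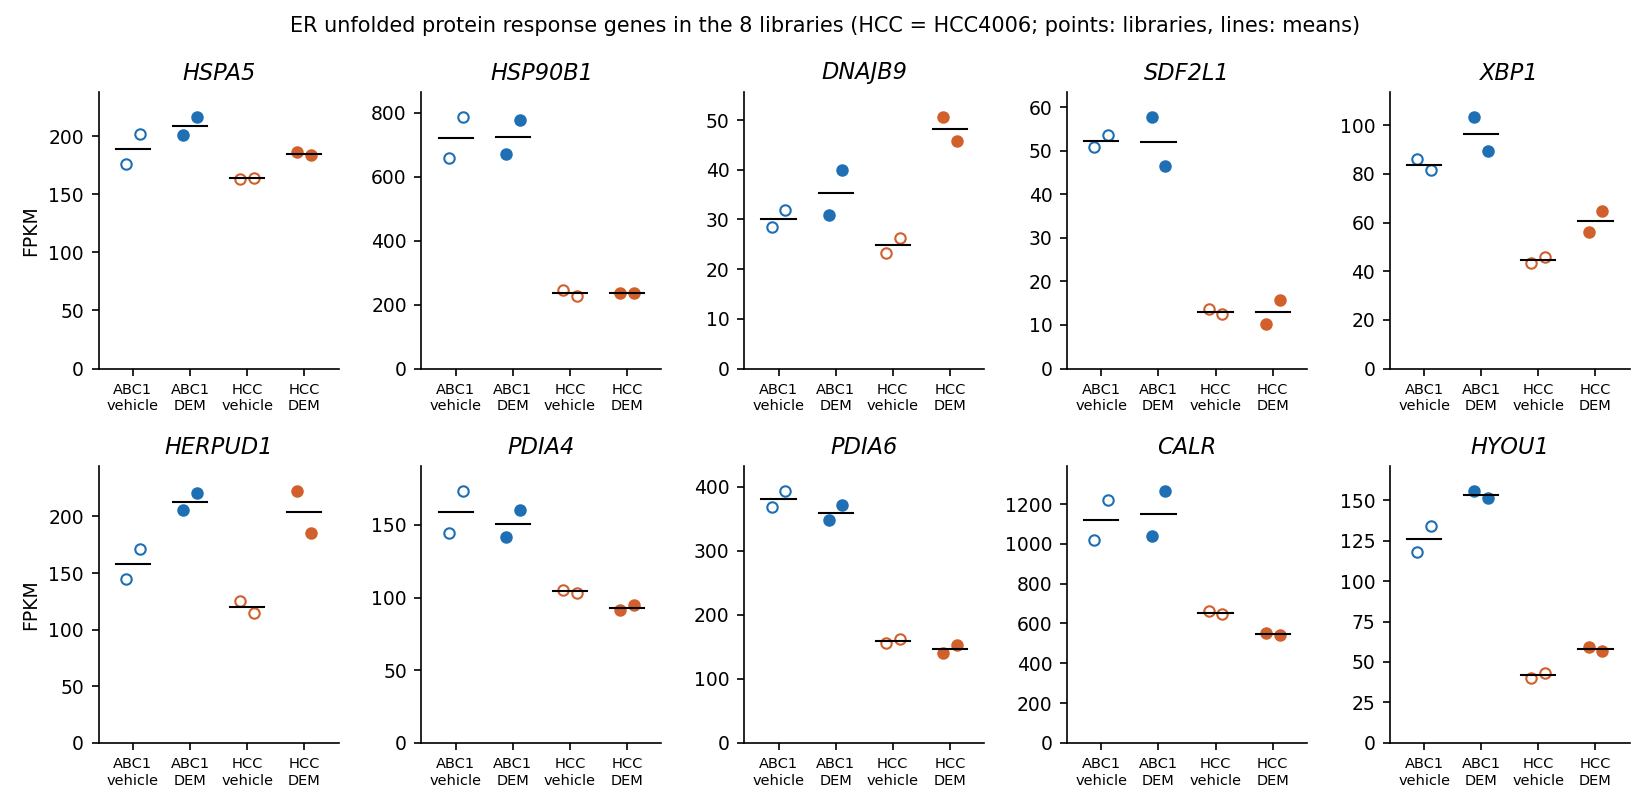
FPKM of each gene in each of the 8 libraries, 1 panel per gene with its own linear axis from 0, open points for vehicle, filled points for DEM and black lines for group means, ABC1 in blue and HCC4006 in orange. *DNAJB9* is the gene whose filled orange points (50.6 and 45.9 FPKM) stand farthest from the open ones (23.2 and 26.4 FPKM); for *CALR* the filled orange points lie below.

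DEM raised 4 of the 10 genes in HCC4006 and lowered 1, whereas *HSPA5*, *HSP90B1*, *SDF2L1*, *PDIA4* and *PDIA6* were called in neither line. *DNAJB9*, *HERPUD1*, *HYOU1* and *XBP1* were called upregulated there (4 of 10, against 8.45% of the 13542 genes tested), *CALR* was called downregulated (1 of 10, against 10.7%), and 7 of the 10 had an unadjusted p under 0.05, against 36.8% of all genes tested. In ABC1, 0 of 10 were called in either direction by limma, against 0.768% of 12635 genes called upregulated and 0.435% called downregulated. Among the 10 genes in ABC1, only *HERPUD1* had an unadjusted p under 0.05, a share below the 21.9% of all genes tested. With libraries scaled to a common sum, the calls over all genes in ABC1 were 110 up and 97 down in place of 97 and 55, and those among the 10 stayed at 0. Both DEM libraries lay above both vehicle libraries for 3 of 10 genes in ABC1 (25.5% of all genes tested) and 5 of 10 in HCC4006 (29.3%). They lay below for 0 of 10 in ABC1 (28.2%) and 3 of 10 in HCC4006 (35.3%). The 10 had the same median log2 fold change in both lines, 0.09, beside -0.02 and -0.03 over all genes tested. It was -0.0024 in ABC1 without vehicle replicate 0, 0.16 without vehicle replicate 1, 0.15 without DEM replicate 0 and 0.06 without DEM replicate 1, and it reached 0.21 in HCC4006 without DEM replicate 0. The changes of *HERPUD1*, *HYOU1* and *XBP1* called in HCC4006 were smaller than any change called in ABC1, where the smallest was 0.80 on the log2 scale (0.22 in HCC4006).

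The Hsp70 system of the ER lumen begins with *HSPA5* (BiP), the chaperone that binds nascent chains and keeps the stress sensors inactive, encoded on chromosome 9 of GRCh37 (127997132 to 128003661, minus strand). In ABC1, *HSPA5* had 176 and 202 FPKM with vehicle and 201 and 216 FPKM with DEM. In HCC4006 it had 163 and 164 FPKM with vehicle and 186 and 184 FPKM with DEM. The groups overlapped in ABC1, and in HCC4006 both DEM libraries were the higher ones by a small margin. Changes are given as log2 fold changes on the log2(FPKM + 1) scale, with the standard error (SE) and the 95% confidence interval (CI) of limma. That of *HSPA5* was 0.14 in ABC1 (SE 0.14, 95% CI -0.19 to 0.48, adjusted p = 0.577) and 0.17 in HCC4006 (SE 0.06, 0.03 to 0.32, adjusted p = 0.0930), neither passing the threshold. On the ratio scale these intervals reach 1.40-fold in ABC1 and 1.25-fold in HCC4006.

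*DNAJB9* (ERdj4) encodes a J-domain co-chaperone of BiP and is a textbook target of spliced XBP1. It lies on chromosome 7 (108210311 to 108215294, plus strand). In HCC4006, *DNAJB9* rose from 23.2 and 26.4 FPKM to 50.6 and 45.9 FPKM, so that both DEM libraries were well above both vehicle libraries. The log2 fold change of 0.94 (SE 0.10, 95% CI 0.69 to 1.18, adjusted p = 0.00433), or 1.91-fold, was the largest of the 10. In ABC1, *DNAJB9* had 28.5 and 31.8 FPKM with vehicle and 30.9 and 39.9 FPKM with DEM, overlapping groups with a log2 fold change of 0.22 (SE 0.16, -0.19 to 0.62, adjusted p = 0.485). With vehicle the level was higher in ABC1, and with DEM both HCC4006 libraries were above both ABC1 libraries. The call in HCC4006 held when any 1 library was left out (adjusted p = 0.0218 to 0.0484) and was lost without the expression minimum of 1 FPKM (adjusted p = 0.0824).

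*HYOU1*, on the minus strand of chromosome 11 (118914899 to 118927938), encodes an Hsp110-like nucleotide exchange factor for BiP. It rose in HCC4006 from 40.0 and 43.4 FPKM to 59.2 and 56.6 FPKM, without overlap. This was a log2 fold change of 0.47 (SE 0.08, 95% CI 0.27 to 0.66, adjusted p = 0.0154). In ABC1, where its level was higher, *HYOU1* had 118 and 134 FPKM with vehicle and 156 and 151 FPKM with DEM, also without overlap. The log2 fold change there was 0.29 (SE 0.13, -0.03 to 0.61) and missed the threshold (adjusted p = 0.267). *SDF2L1*, which works with ERdj3 and BiP to keep client proteins soluble, lies on chromosome 22 (21996591 to 21998588, plus strand). It had 51.0 and 53.6 FPKM with vehicle and 57.7 and 46.4 FPKM with DEM in ABC1, and 13.6 and 12.6 FPKM against 10.3 and 15.8 FPKM in HCC4006. In both lines the DEM libraries fell on either side of the vehicle libraries. The log2 fold changes were -0.01 (95% CI -0.38 to 0.35, adjusted p = 0.967) and -0.03 (-0.50 to 0.43, adjusted p = 0.920), the latter the widest interval of the 10 in HCC4006. In HCC4006, the call of *HYOU1* was lost when any 1 library was left out (adjusted p = 0.0638 to 0.0948).

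*HSP90B1* (GRP94) folds integrins and Toll-like receptors and is encoded on chromosome 12 (104323885 to 104347709, plus strand). Its values were 658 and 786 FPKM with vehicle and 672 and 778 FPKM with DEM in ABC1. In HCC4006 they were 246 and 227 FPKM with vehicle and 237 and 237 FPKM with DEM, so the DEM libraries lay between the vehicle libraries in both lines. Its log2 fold changes were 0.01 in ABC1 (95% CI -0.40 to 0.42, adjusted p = 0.983) and 0.0017 in HCC4006 (-0.16 to 0.16, adjusted p = 0.989), and the sign turned in both lines when libraries were scaled to a common sum. Calreticulin, the product of *CALR* on chromosome 19 (13049392 to 13055303, plus strand), is the abundant lectin chaperone of the lumen. In HCC4006, *CALR* fell from 664 and 646 FPKM to 551 and 544 FPKM, with both DEM libraries below both vehicle libraries. The log2 fold change was -0.26 (SE 0.06, 95% CI -0.40 to -0.12, adjusted p = 0.0312), or 0.837-fold. In ABC1, *CALR* had 1020 and 1220 FPKM with vehicle and 1042 and 1264 FPKM with DEM, overlapping groups with a log2 fold change of 0.04 (SE 0.18, adjusted p = 0.918). The call in HCC4006 was lost without the mean-variance trend (adjusted p = 0.111), in a fit of all 8 libraries (adjusted p = 0.236) and when any 1 library was left out (0.111 to 0.175).

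The disulfide isomerases *PDIA4* (chromosome 7, 148700154 to 148725754, minus strand) and *PDIA6* (chromosome 2, 10923517 to 10978103, minus strand) form and rearrange disulfide bonds in client proteins. *PDIA4* had 145 and 173 FPKM with vehicle and 142 and 160 FPKM with DEM in ABC1, and 105 and 103 FPKM against 91.5 and 94.6 FPKM in HCC4006. *PDIA6* had 369 and 393 FPKM with vehicle and 348 and 371 FPKM with DEM in ABC1, and 156 and 162 FPKM against 140 and 153 FPKM in HCC4006. The groups overlapped for both genes in ABC1, and both DEM libraries were the lower ones for both genes in HCC4006. The log2 fold changes of *PDIA4* were -0.07 in ABC1 (adjusted p = 0.817) and -0.16 in HCC4006 (95% CI -0.32 to -0.0034, adjusted p = 0.130). Those of *PDIA6* were -0.08 in ABC1 (adjusted p = 0.751) and -0.12 in HCC4006 (-0.29 to 0.06, adjusted p = 0.280). No change of either isomerase passed the threshold.

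*HERPUD1* encodes a ubiquitin-like ER membrane protein that organises the degradation complex, and its transcription is known to answer to ATF4 as well as to ATF6 and XBP1. It lies on chromosome 16 (56966054 to 56978776, plus strand) and is the member whose upstream sequence above holds both ERSE-II and the C/EBP-ATF element. In HCC4006, *HERPUD1* rose from 125 and 114 FPKM to 222 and 186 FPKM, a log2 fold change of 0.76 (SE 0.10, 95% CI 0.50 to 1.01, adjusted p = 0.00856). In ABC1 it had 144 and 171 FPKM with vehicle and 206 and 221 FPKM with DEM, without overlap. The log2 fold change of 0.44 (SE 0.14, 0.09 to 0.79) was the largest of the 10 in ABC1 and missed the threshold (adjusted p = 0.164). The call in HCC4006 was lost without vehicle replicate 1 (adjusted p = 0.0585) and, barely, without DEM replicate 0 (adjusted p = 0.0502). A pair of annotated lncRNAs overlaps *HERPUD1* on the same strand, by 1065 and 699 bases, and how their reads were assigned was not given in the sources used here.

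*XBP1* is both a transcription factor of the pathway and one of its targets. Gene-level FPKM do not separate its spliced from its unspliced form, so IRE1 activity was not measured. The 26 bases that distinguish the transcripts are shown in capitals, with 15 bases on each side, to make clear what such a measurement would have to resolve. They were obtained by comparing the annotated transcripts XBP1-201 and XBP1-202 (GENCODE v44, GRCh37, minus strand of chromosome 22), which allow 7 equivalent placements of the missing stretch, the leftmost of which is printed.
XBP1-201: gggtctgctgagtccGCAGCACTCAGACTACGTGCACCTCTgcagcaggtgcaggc

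Total *XBP1* (chromosome 22, 29190543 to 29196585, minus strand) rose in HCC4006 from 43.4 and 46.0 FPKM to 56.3 and 64.9 FPKM. The groups did not overlap, and the log2 fold change was 0.43 (SE 0.09, 95% CI 0.20 to 0.66, adjusted p = 0.0300). In ABC1, *XBP1* had 86.3 and 81.5 FPKM with vehicle and 103 and 89.4 FPKM with DEM, again without overlap, with a log2 fold change of 0.19 (SE 0.13, -0.13 to 0.52, adjusted p = 0.439). The call in HCC4006 was lost without the mean-variance trend (adjusted p = 0.067) and when any 1 library was left out (adjusted p = 0.0576 to 0.141).

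**Figure D3:**
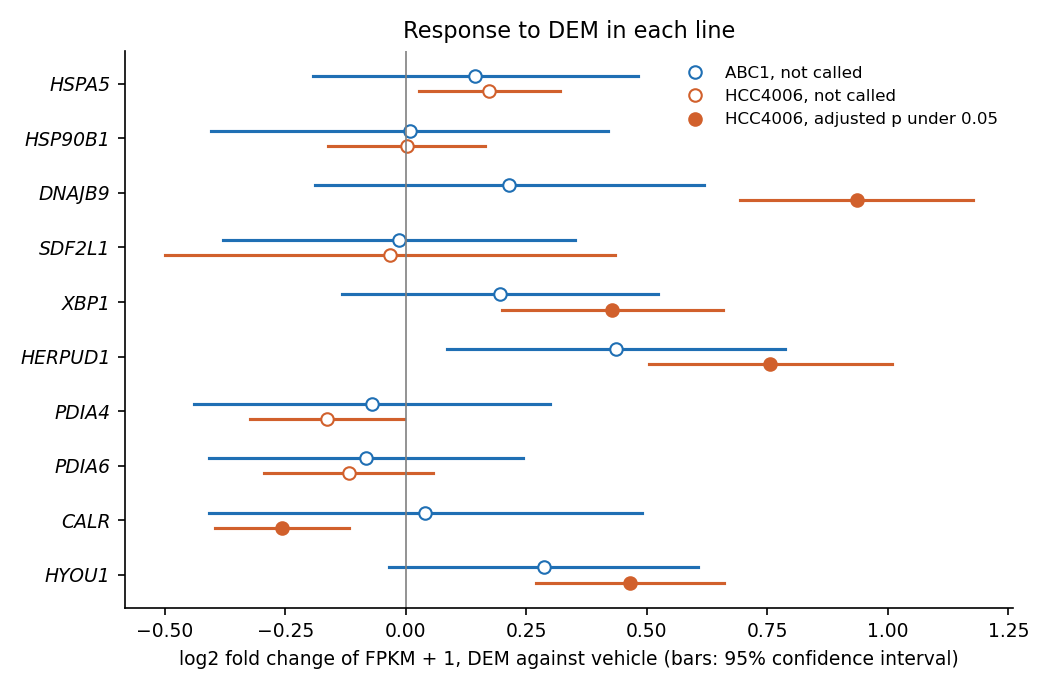
Log2 fold change of DEM over vehicle on the log2(FPKM + 1) scale for each of the 10 genes, with 95% confidence intervals from limma, ABC1 in blue and HCC4006 in orange; filled points passed an adjusted p under 0.05. Filled points are those of *DNAJB9*, *HERPUD1*, *HYOU1* and *XBP1* (above 0) and *CALR* (below 0) in HCC4006. The ABC1 intervals are wider except for *SDF2L1*, whose interval is wider in HCC4006.

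Whether the lines differed in their response was tested by the interaction in a model of all 8 libraries. By limma with Benjamini-Hochberg adjustment, 0 of the 10 genes were called, against 0.636% of the 13682 genes tested. Of the 10, *DNAJB9* alone had an unadjusted p under 0.05, against 2068 of those 13682 genes. The response of *DNAJB9* in HCC4006 exceeded that in ABC1 by 0.72 on the log2 scale (SE 0.20, 95% CI 0.25 to 1.19, adjusted p = 0.165). For *HERPUD1* the difference was 0.32 (-0.10 to 0.74), for *XBP1* 0.23 (-0.14 to 0.61), for *HYOU1* 0.18 (-0.15 to 0.50), for *HSPA5* 0.03 (-0.29 to 0.35) and for *CALR* -0.30 (-0.73 to 0.13). The calls made in HCC4006 alone are therefore not shown to be particular to that line.

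Set beside the promoter elements, 3 of the 4 genes called upregulated in HCC4006 (*HERPUD1*, *HYOU1* and *XBP1*) held ERSE or ERSE-II, against 8 of all 10. The gene with the largest change there, *DNAJB9*, held neither. *HSP90B1*, with ERSE at 2 positions, and *SDF2L1*, with ERSE-II, had changes of 0.0017 and -0.03 there. *CALR*, with ERSE, was called downregulated. Among the 8 libraries, centred on the mean of each line, the gene of the list whose log2(FPKM + 1) went most closely with that of *HSPA5* was *HERPUD1* (Pearson's r = 0.890), followed by *HYOU1* (0.884) and *DNAJB9* (0.824). Among all 11539 genes compared, with *HSPA5* itself as rank 1, these ranked only 400, 441 and 925. *CALR* and *PDIA4* were near 0 (0.0164 and -0.0493), and *PDIA6* had -0.354. These correlations describe 8 libraries of 2 lines that share the treatment.

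Upstream of these genes, the sensors themselves were not called in the fit of either line. *ERN1* (IRE1) had 2.19 and 2.17 FPKM with vehicle and 4.63 and 5.27 FPKM with DEM in ABC1, a log2 fold change of 0.90 (SE 0.17, adjusted p = 0.0696). In HCC4006 it had 1.91 and 2.20 FPKM against 3.24 and 2.86 FPKM (0.41, adjusted p = 0.116). *ATF6* showed the opposite direction, with 17.1 and 16.0 FPKM against 12 and 11.6 FPKM in ABC1 and 10.3 and 12.1 FPKM against 7.41 and 8.43 FPKM in HCC4006. The changes of *ATF6* were -0.46 (adjusted p = 0.126) and -0.45 (adjusted p = 0.0572). Groups did not overlap for *ERN1*, *EIF2AK3* or *ATF6* in either line, which is common with 2 libraries per group. Over all genes tested, both DEM libraries lay above both vehicle libraries for 25.5% in ABC1 and 29.3% in HCC4006. They lay below for 28.2% and 35.3%. A fit of all 8 libraries called *ATF6* downregulated in ABC1 (adjusted p = 0.0474) and in HCC4006 (0.0498), where a minimum of 5 FPKM did so too (0.0458), and called *ERN1* upregulated in ABC1 (0.00953). For *EIF2AK3* (PERK) the log2 values were 0.30 (adjusted p = 0.246) in ABC1 and 0.20 (adjusted p = 0.263) in HCC4006. Of the list of 10 sensors and transcription factors, 9 were tested in ABC1 with 0 called (2 with an unadjusted p under 0.05, or 22.2%, against 21.9% of all genes), and 10 in HCC4006 with 0 called upregulated (against 8.45%) and 2 downregulated (against 10.7%). Those were *CREB3L4* (14.4 and 13.7 against 7.41 and 7.91 FPKM, log2 fold change -0.80, adjusted p = 0.00703) and *CREB3L1* (58.5 and 54.4 against 44.3 and 40.1 FPKM, -0.41, adjusted p = 0.0267), relatives of ATF6 that are also released by proteolysis.

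Other ER folding factors numbered 24, all tested in both lines. In HCC4006, 3 were called upregulated (12.5%, against 8.45% of all genes tested) and 0 downregulated (against 10.7%), with a list median of 0.06. *ERO1B*, an oxidase that recharges the disulfide isomerases, had 0.438 and 1.0 FPKM with vehicle and 2.32 and 2.35 FPKM with DEM (log2 fold change 0.97, adjusted p = 0.0320); it passed the expression minimum only through the DEM libraries, so its call is no support for the list. *DNAJC3* (p58IPK), a BiP co-chaperone that also restrains PERK, had 14.4 and 15 FPKM against 21.7 and 22.7 FPKM (0.56, adjusted p = 0.0121). *CANX*, the membrane-bound relative of calreticulin, had 570 and 596 FPKM against 692 and 736 FPKM (0.29, adjusted p = 0.0298), which is the direction opposite to that of *CALR* in the same libraries. ERSE was found for 3 of the 21 genes of this list with a promoter window (*CANX*, *CRELD2* and *ERO1B*). In ABC1, 0 of 24 were called by limma (1 with an unadjusted p under 0.05, or 4.17%, against 21.9% of all genes), with a median of 0.08, and *ERO1B* had 3.27 and 5.29 FPKM against 8.39 and 10.9 FPKM (1.03, adjusted p = 0.0954).

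Of the ER-associated degradation genes, 2 of 20 were called upregulated in HCC4006, a share of 10% near the 8.45% of all genes, and 0 downregulated (against 10.7%). *VCP*, the ATPase that extracts proteins from the ER membrane, had 102 and 102 FPKM with vehicle and 134 and 135 FPKM with DEM (log2 fold change 0.39, adjusted p = 0.0123). *SELENOS*, a selenoprotein that binds VCP at the membrane, had 16.2 and 15.6 FPKM against 21.8 and 19.9 FPKM (0.37, adjusted p = 0.0437). In ABC1, 0 of 19 were called by limma, 6 had an unadjusted p under 0.05 (31.6%, against 21.9% of all genes), and 10 of 19 had both DEM libraries above both vehicle libraries (52.6%, against 25.5%) with 0 below (against 28.2%). A fit of all 8 libraries called 5 of them upregulated in ABC1, among them *SELENOS* (51.8 and 55 against 81.0 and 90.2 FPKM, 0.67, adjusted p = 0.0696 in the fit of the line alone). Over all 12635 genes tested in ABC1, that fit called 779 upregulated, against 97 in the fit of the line alone. Of 22 genes of translocation and export, 3 were called upregulated in HCC4006 (13.6%, against 8.45%) and 1 downregulated (4.55%, against 10.7%), and 0 were called in ABC1, where 3 had an unadjusted p under 0.05 (13.6%, against 21.9%). The coat proteins *SEC24D* (0.52, adjusted p = 0.0123) and *SEC31A* (0.40, adjusted p = 0.0185) and the signal peptidase subunit *SEC11C* (0.50, adjusted p = 0.0214) rose on the log2 scale in HCC4006. *LMAN1*, a cargo receptor for glycoproteins leaving the ER, fell from 26.2 and 26.3 FPKM to 17.4 and 16.5 FPKM (-0.60, adjusted p = 0.00902). In HCC4006, at most 1 call was left in each direction of the sensor, folding, degradation and translocation lists whichever library was left out.

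The ATF4 arm was set beside the chaperone genes, and both lists were chosen with earlier results of these data known. In the ATF4 arm, 9 of 22 genes tested were called upregulated in ABC1 (40.9%, against 0.768% of all genes) and 16 of 23 in HCC4006 (69.6%, against 8.45%). Called downregulated were 0 in either line, against 0.435% of all genes in ABC1 and 10.7% in HCC4006. The median change of the ATF4 arm was 0.86 on the log2 scale in ABC1 cells and 0.64 in HCC4006 cells. That of the 10 ER genes was 0.09 in each line. Behind this median, the 10 ER genes were split in HCC4006, from -0.26 to 0.94. There, 40% were called upregulated (against 8.45%) and 10% downregulated (against 10.7%). In ABC1 the 10 ran from -0.08 to 0.44, with 0 called. In the ATF4 arm, both DEM libraries lay above both vehicle libraries for 20 of 22 genes in ABC1 (against 25.5% of all genes tested) and 22 of 23 in HCC4006 (against 29.3%). *ATF4* itself had 249 and 292 FPKM with vehicle and 365 and 430 FPKM with DEM in ABC1 (log2 fold change 0.55, adjusted p = 0.132). In HCC4006 it rose from 188 and 202 FPKM to 339 and 322 FPKM (0.76, adjusted p = 0.00285). ATF4 is controlled mainly at translation, which RNA-seq does not show.

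Among its targets, *DDIT3* (CHOP), a transcription factor of prolonged stress, rose from 16.7 and 17.1 FPKM to 53.0 and 39.9 FPKM in ABC1 (1.40, adjusted p = 0.0365) and from 19.4 and 21.1 FPKM to 48.4 and 49.6 FPKM in HCC4006 (1.24, adjusted p = 0.00136). *CHAC1*, which degrades glutathione, rose by 1.41 (adjusted p = 0.0186) in ABC1 and by 0.85 (adjusted p = 0.0116) in HCC4006 on the log2 scale. The pseudokinase *TRIB3* (0.98 and 1.05), asparagine synthetase *ASNS* (1.04 and 0.78) and mitochondrial *PCK2* (1.46 and 0.59) were called upregulated in both lines too. *SLC7A11*, the cystine transporter, rose by 2.55 and 2.76, and it is also a target of NRF2. *ATF3* was called in HCC4006 (1.33, adjusted p = 0.00163) and had a change of 1.02 in ABC1 (adjusted p = 0.0614). The count of the ATF4 arm in ABC1 was 17 in a fit of all 8 libraries, while that of the 10 ER genes was 0. Over all 12635 genes tested in ABC1, that fit called 779 upregulated, against 97 in the fit of the line alone. Nearly all calls of the ATF4 arm in ABC1 were lost when any 1 library was left out, as were most calls over all genes.

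**Figure D4:**
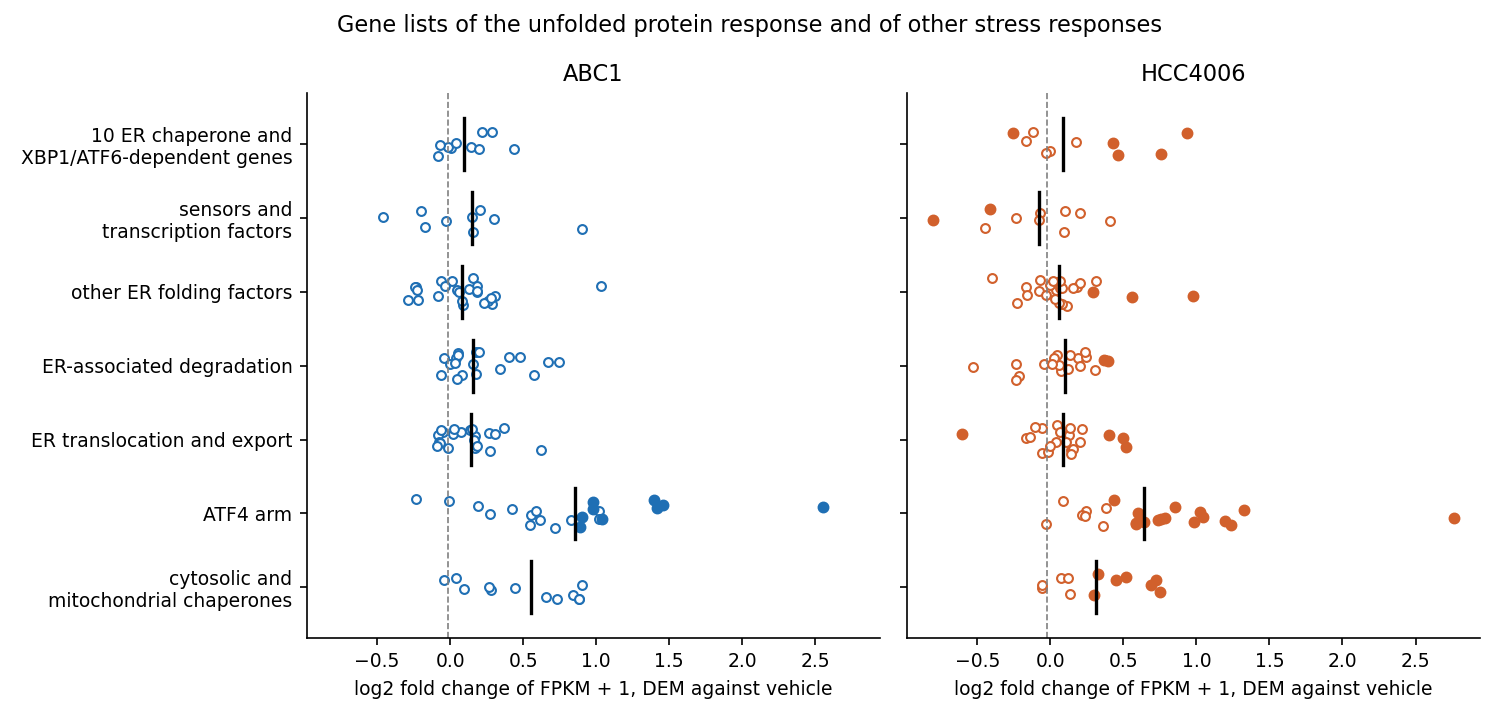
Log2 fold change of DEM over vehicle on the log2(FPKM + 1) scale for every tested gene of 7 lists, 1 point per gene and 1 panel per line; filled points passed an adjusted p under 0.05, black ticks are list medians and the dashed line is the median of all genes tested. The ticks of the 10 ER genes (0.09 and 0.09) lie near the dashed line, and those of the ATF4 arm (0.86 and 0.64) lie above it.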

How the data were processed

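RNA-seq libraries of the 4 groups were analysed, with 2 libraries each, called biological duplicates in the study's methods; p-values measure the spread between these libraries. Group and replicate number (0 or 1) came from the sample labels. The authors deposited 1 FPKM value per gene identifier and library. The study's methods name TopHat, Cufflinks and hg19, whereas the submitters' processing notes list bcl2fastq 2.15.0, cutadapt 1.15, STAR 2.5.3a, Cuffnorm, HTSeq and DESeq2, so the aligner is not certain. The authors' deposited comparison tables gave the base mean, a signal that is the mean of scaled counts over a line's libraries. Their columns of fold changes, standard errors, test statistics and p-values were not used.

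DEM was compared with vehicle on log2(FPKM + 1) in the 4 libraries of a line by limma 3.58.1 (R 4.3.3), moderated with a mean-variance trend. Genes averaging 1 FPKM or more in the line entered the test, and the threshold was a Benjamini-Hochberg adjusted p of 0.05 over all of them. The pseudocount makes changes of low genes smaller. The difference between lines was the interaction in a model of all 8 libraries. With 2 against 2 libraries, an exact permutation test cannot give a two-sided p under 0.333. Depth per library was not available as counts, so no counting interval is given. The steps were tested on simulated data.

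Symbols were found for 55534 of 57815 identifiers, and all 129 listed genes were matched. Gene positions are those of GENCODE on GRCh37, and promoter windows those of RefSeq on GRCh38.p14; coordinates were not converted. The genes named outside the list of 10 were, per list, line and direction, up to 4 called genes with the largest change, genes called for a difference between lines, and a fixed set (*ATF4*, *DDIT3*, *TRIB3*, *CHAC1*, *ASNS*, *ERN1*, *EIF2AK3*, *ATF6* and the 5 NRF2 targets). Members and lists were chosen with earlier results of these data known. The alternatives were a pseudocount of 0.1, no minimum or a minimum of 5 FPKM, scaling by the median of ratios or to a common sum (TPM), no trend, a fit of all 8 libraries, the replicate number as a block, and each library left out in turn.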

Additional observations from a re-analysis of the deposited data

Results flagged for a closer look

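*CTH*, which encodes cystathionine gamma-lyase of the transsulfuration pathway, belongs to the ATF4 arm. It was the only one of the 129 listed genes called by the interaction test, against 0.636% of all 13682 genes tested. It rose in HCC4006 from 9.50 and 9.23 FPKM to 22 and 23.5 FPKM (log2 fold change 1.20, adjusted p = 0.00187 by limma), whereas in ABC1 it had 40.6 and 42.7 FPKM with vehicle and 51.2 and 49.9 FPKM with DEM (0.28, adjusted p = 0.245). The difference was 0.922 on the log2 scale (SE 0.13, 95% CI 0.63 to 1.22, limma adjusted p = 0.0357), with all 4 DEM libraries above the vehicle libraries of their line. Over all genes, the interaction calls depended on the processing. The 42 above 0 and 45 below 0 became 11 and 9 with a pseudocount of 0.1 and 5 and 8 with the replicate block. Without the expression minimum they became 173 and 230.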

How the results depend on the processing

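Of the 10 ER genes, the counts called in ABC1 (0 up, 0 down) and for a difference between lines (0) held under the alternatives run, except that the replicate block called *HERPUD1* in ABC1 (count 1, adjusted p = 0.0132). In HCC4006, the 4 called upregulated became 0 without the expression minimum and 1 to 2 when a library was left out, and the 1 called downregulated became 0 without the minimum, without the trend, in the fit of all 8 libraries and whichever library was left out (0 to 0). With a library left out, the median of the 10 lay between -0.0024 and 0.16 for ABC1 and between 0.06 and 0.21 for HCC4006, beside 0.09 in each line with every library. Over all genes, the 97 called upregulated in ABC1 became 0 without the minimum (3883 with an unadjusted p under 0.05), 158 with the median of ratios, 27 without the trend, 779 in the fit of all 8 libraries, 1185 with the replicate block and 0 to 29 with a library left out. The 55 called downregulated there became 0, 93, 6, 788, 1163 and 0 to 8 in the same order, 94 with a minimum of 5 FPKM and 97 with TPM scaling. In HCC4006, 1144 up and 1447 down became 177 and 193 without the minimum and 206 to 324 and 255 to 366 with a library left out; with the median of ratios they were 1291 and 1231, and with the replicate block 1457 and 1847. A left-out library leaves 1 sample in an arm, which is assumed to vary like the other group. Signs turned for genes that were not called. With TPM scaling *HSP90B1* was -0.0303 in ABC1 and -0.0034 in HCC4006, and with the median of ratios *SDF2L1* was 0.0008 in ABC1. With a library left out, ABC1 values ran from -0.12 to 0.14 for *HSP90B1*, -0.17 to 0.14 for *SDF2L1*, -0.199 to 0.0594 for *PDIA4*, -0.0986 to 0.181 for *CALR* and -0.193 to 0.0169 for *LMAN1*, and HCC4006 values from -0.0553 to 0.0586 for *HSP90B1* and -0.32 to 0.25 for *SDF2L1*. The cause was not tested. Deviations of same-numbered libraries from their group means correlated with r = 0.258 in ABC1 and 0.0544 in HCC4006, and the labels give no shared day or batch, so the numbers were not taken as pairs.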

Other observations

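Of 12 chaperones of the cytosol and mitochondria, many of them known HSF1 targets, 7 were called upregulated in HCC4006 (58.3%, against 8.45% of all genes tested) and 0 in ABC1 (7 with an unadjusted p under 0.05 by limma, or 58.3%, against 21.9%), with list medians of 0.31 and 0.55 on the log2 scale. The mitochondrial pair, *HSPD1* and *HSPE1*, was called in neither line, and the 10 cytosolic genes alone, set apart after the values were seen, had medians of 0.39 and 0.69. *BAG3*, a co-chaperone of HSP70, rose in HCC4006 from 63.9 and 58.4 FPKM to 108 and 99.6 FPKM (0.75, adjusted p = 0.00457), and in ABC1 it had 32.6 and 38.7 FPKM with vehicle and 59.7 and 73.8 FPKM with DEM (0.88, adjusted p = 0.0671). *HSPH1*, the cytosolic relative of *HYOU1*, rose in HCC4006 by 0.52 (adjusted p = 0.0123) and had a change of 0.90 in ABC1 (adjusted p = 0.0600). *HSPA1A* (0.69) and *HSPA1B* (0.72) were also called in HCC4006, and since they are near-identical copies, the division of reads between them is uncertain. A fit of all 8 libraries called 6 of the 12 in ABC1. Over all 12635 genes tested there, that fit called 779 upregulated and 788 downregulated.

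The 5 genes outside the lists whose log2(FPKM + 1) went most closely with *HSPA5*, over the 8 libraries centred by line and among 11539 genes, were *TOB1* (Pearson's r = 0.987), *REXO2* (0.984), *JMY* (0.984), *PURA* (0.983) and *PSMD3* (0.982). *TOB1*, an antiproliferative regulator, had 18.9 and 28.0 FPKM with vehicle and 27.1 and 35.6 FPKM with DEM in ABC1, and 39.3 and 36.6 FPKM against 61.2 and 56.9 FPKM in HCC4006. These values describe 8 libraries that share the treatment.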
